A study of Mus musculus with 6 samples.

Results

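Cytosolic ribosomal protein genes encode the proteins of the ribosomes that translate nuclear mRNAs. The members were chosen by name: every row of the count files with a mouse Rpl or Rps gene symbol of the standard form, plus Rplp0, Rplp1, Rplp2 and Rpsa, with at least 60 counts summed over the 6 libraries. Of 43472 gene symbols in the files, 88 matched by name and 81 reached the minimum, 47 of the large (60S) subunit and 34 of the small (40S) subunit. The name rule uses no fold change, and pseudogene rows with a -ps suffix were left out. In GENCODE M21, members Rps3a2 and Rps4l are annotated as processed pseudogenes rather than protein-coding genes, so the label does not hold for these rows.

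The study asked how loss of the adhesion G protein-coupled receptor Adgrg6 (listed under its older symbol Gpr126) in cartilage affects the intervertebral disc (IVD). RNA came from IVDs of mice at postnatal day 20 on a strain labelled C57B6/J, with 2 to 3 mice in each pool. The mutant group held 3 pools with genotype Col2Cre;Adgrg6 f/f, in which Cre under Col2a1 control acts from embryonic development on. The study describes recombination with this Cre in the whole IVD and also in periosteum and trabecular bone, so the gene is not lost in the disc alone. The control group held 3 pools labelled wild type, whose titles name them Col2Cre controls and which the study describes as littermates without Cre. Poly(A) RNA was sequenced, and the files give raw counts per gene symbol.

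The libraries held 9061491 to 12017008 counts on genes. Levels are given as CPM, the counts of a gene per 1000000 counts of its library after TMM scaling, and values of a group follow the order of replicates 1, 2 and 3. Gpr126 stood at 124, 108 and 94.3 CPM in controls and 138, 124 and 106 CPM in mutants. These counts cover the whole gene and do not separate the deleted exons, so they check no label. The cartilage content of the samples was plain, since all 8 disc and cartilage markers were counted and Col2a1 alone stood at 62708 to 124060 CPM. These markers do not separate disc from growth plate cartilage. Summed markers of the nucleus pulposus ranged from 2108 to 5537 CPM and those of osteoblasts from 758 to 1213 CPM. Control replicate 1 stood apart in skeletal muscle markers, whose summed level over 10 genes was 4724 CPM there, 266 and 204 CPM in the other controls and 279 to 303 CPM in the mutants. Summed markers of neurons and glia were 217 to 1647 CPM in control and 904 to 3579 CPM in mutant libraries, and those of annulus and tendon 6763 to 16889 CPM against 15305 to 25262 CPM. Mutant replicate 1 stood apart as well, with 18.9% of reads not aligned (12% to 15.2% in the others), 39.4% outside genes (41.8% to 43.3%) and the highest summed markers of neutrophil precursors (158 CPM), macrophages (108 CPM) and neurons and glia. Control replicate 3 stood apart too, with summed disc and cartilage markers at 79460 CPM (113510 to 140050 CPM in the others). Most of that sum is Col2a1, at 62708 CPM there and 98509 to 124060 CPM in the others. Acan, another marker of the list, stood at 4654 CPM there, within the 3565 to 5462 CPM of the others. Control replicate 3 also had the lowest sum of annulus and tendon markers, at 6763 CPM. In pooled tissue, fewer cells of a type and less RNA per cell cannot be told apart.

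A ribosome joins a small subunit, which decodes the mRNA, with a large subunit, which forms the peptide bond. Each subunit needs its proteins in fixed proportions, and many ribosomal protein mRNAs begin with a run of pyrimidines (a 5′ terminal oligopyrimidine, or TOP, motif), through which the kinase mTOR controls their translation. Cartilage cells export large amounts of matrix protein and so depend on translation, and altered ribosomal proteins are known to disturb skeletal form in mice.

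The promoters of a few members are shown for this start-site run, because it is the sequence feature the family is best known for. Windows of 250 bases before to 50 bases from the start on were taken from RefSeq (GRCm38.p6), which held 71 windows for 59 of the members. Each printed window runs from 40 bases before the annotated start through the first 20 bases of the transcript, with the longest C or T run within 20 bases of the start in capitals. Rpl7a (chr2:26910767-26910826, plus strand) and Rpl27a (chr7:109519155-109519214, plus strand) are among those with the longest runs, Rps27 (chr3:90213629-90213688, minus strand) and Rplp0 (chr5:115559427-115559486, plus strand) are described with their levels further on, and the muscle paralog Rpl3l (chr17:24727786-24727845, plus strand) is the contrast.
Rpl7a: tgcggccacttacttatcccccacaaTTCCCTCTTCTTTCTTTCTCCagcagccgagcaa
Rpl27a: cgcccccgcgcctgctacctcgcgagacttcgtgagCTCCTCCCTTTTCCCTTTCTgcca
Rps27: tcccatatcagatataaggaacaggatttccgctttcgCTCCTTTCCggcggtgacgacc
Rplp0: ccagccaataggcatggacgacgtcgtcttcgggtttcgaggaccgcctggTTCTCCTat
Rpl3l: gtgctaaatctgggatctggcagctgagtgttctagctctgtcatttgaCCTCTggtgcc
The runs were 21 bases in Rpl7a, 20 in Rpl27a, 9 in Rps27, 7 in Rplp0 and 5 in Rpl3l.

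A run of at least 8 pyrimidines near the start was found in 30 of 71 member windows (42.3%), against 16.0% of all 32851 windows. The longest run had a median of 7 bases in member windows and 5 in all windows. Of the exact motifs searched on both strands, AAGATGGC was in 11.3% of member windows and 2.75% of all, CCGGAAGT in 16.9% and 3.89%, and TATAAA in 9.86% and 13.6%. These matches describe letters in the windows and nothing about the factors that may bind there.

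The level of each member was compared between genes per length of mRNA, on the scale of CPM per kb averaged over the 6 libraries. Among the 75 tested protein-coding members that are not paralogs of another ribosomal protein, the median level was 617 CPM per kb, and 65 of them lay within 2-fold of it. The highest levels were those of Rplp1, a protein of the stalk that recruits translation factors, at 1975 CPM per kb, and Rpl41, the smallest ribosomal protein, at 1910. They were followed by Rps15, a protein of the 40S head, at 1477 and Rpl13a, a 60S protein whose gene hosts small nucleolar RNAs, at 1337. Across libraries Rplp1 ranged from 1435 to 2543 and Rpl41 from 1522 to 2342 CPM per kb, so the order of these neighbours is within their spread.

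The lowest tested members were paralogs and pseudogenes. Rps27l, a paralog of Rps27 known as a p53 target, stood at 78.4 CPM per kb, Rpl7l1, a paralog of Rpl7, at 47.3, Rps4l at 46.5 and Rps3a2 at 13.2. Rpl22l1, the paralog of Rpl22, stood at 115 CPM per kb beside 429 for Rpl22. Rps20 also ranked low, at 107 CPM per kb, but on an annotated mRNA of 3706 bases, and per coding length it was the 26th highest.

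**Figure D1:**
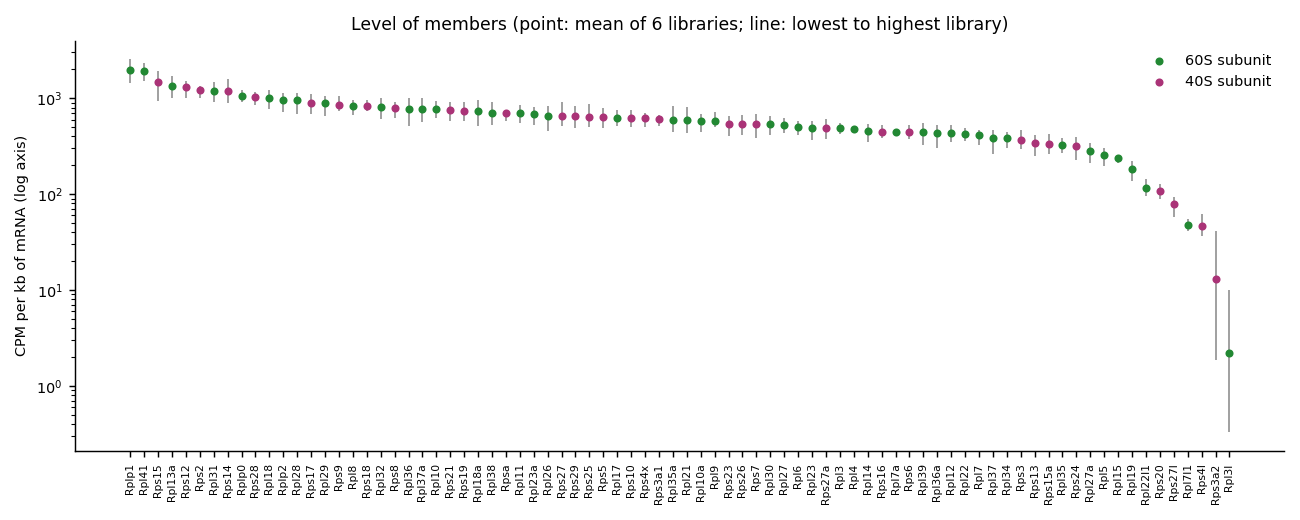
Level of 80 members in CPM per kb of mRNA on a log axis, with points for the mean of 6 libraries and lines from the lowest to the highest library. Most members form a shallow slope below Rplp1 at 1975, and the paralogs and pseudogenes form the tail, down to Rpl3l at 2.23.

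Some ribosomal protein genes gave no usable value. Rpl13 and Rpl24, both known for skeletal phenotypes, were listed at 0 in every library. The whole body of Rpl13 lies inside a gene model on the same strand, Gm20388, that had 94262 counts in all. Of the Rpl13 exon bases, 6% lie in exons of same-strand genes, the largest part (3.3%) in the small nucleolar RNA Snord68. Of Rpl24, 98.7% of the body and 47% of the exon bases lie inside Gm28037, which had 149 counts. Also listed at 0 in every library were Rpl10l, a paralog of Rpl10 best known from testis, and Rps3a3. Rpl39l had 46 counts in all, Rps12l1 35 and Rps12l2 5. A low count of these genes is not read as a low level here.

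The comparison of mutant with control asked whether members were higher or lower without Adgrg6. Most stood lower in the mutant average, by a modest amount, and no member passed the adjusted test. Of 80 members tested, 76 had a log2 fold change below 0 (95%), where 51.6% of all 16152 genes tested did. The median log2 fold change was -0.26 for members, which is 16.6% lower, and -0.01 for all genes. The members are not independent of each other, since 64 of 80 correlated at over 0.8 with the members' own median across the same 6 libraries.

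At an unadjusted p under 0.05 (quasi-likelihood test of edgeR), 2 of 80 members were lower (2.5%), beside 4.32% of all genes tested, and 0 were higher, beside 2.89%. At an adjusted p under 0.05 the count was 0 of 80, beside 0.00619% of all genes, and the lowest adjusted p among members was 0.556. DESeq2 also gave 0 at its adjusted p. In 5 members (6.25%) all mutant libraries lay below all controls, beside 5.96% of all genes, and in 0 members all lay above, beside 5.45%. In this test the shares of called and separated members were near or under those of all genes, but the count of called members moved with the method: 8 of 80 (10%) were lower at an unadjusted p under 0.05 with DESeq2, beside 4.62% of all genes, and 8 with scaling by total gene counts, beside 6.13%.

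Library by library the groups were less distinct. Members took 3.38%, 4.46% and 5.09% of gene counts in controls and 2.77%, 3.75% and 3.6% in mutants. The groups overlapped, because control replicate 1 lay below mutant replicates 2 and 3. The mean share was 4.31% ± 0.867 (SD, n = 3) in controls and 3.37% ± 0.530 (SD, n = 3) in mutants, and the difference of -0.94 percentage points was close to the spread among controls. As a score over the members it was not tested.

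The same split held gene by gene. Control replicate 1 lay below both other controls in 79 of 80 members, the highest library was control replicate 2 or 3 in 73, and the lowest was mutant replicate 1 in 58. The median member stood at -0.13, 0.26 and 0.26 (log2, against its own mean) in controls and at -0.33, -0.01 and -0.06 in mutants. Without control replicate 1, the library high in muscle markers, 11 of 80 members were lower at an unadjusted p under 0.05, beside 8.89% of all genes, and the median was -0.36. Without mutant replicate 1, the library with most unaligned reads, the count was 1, beside 2.52% of all genes, and the median -0.13. Without control replicate 3, the library lowest in Col2a1 and in the sum of disc and cartilage markers, the count was 2, beside 2.01% of all genes, and the median -0.19. The part of muscle and other cell markers in these differences was not tested.

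**Figure D2:**
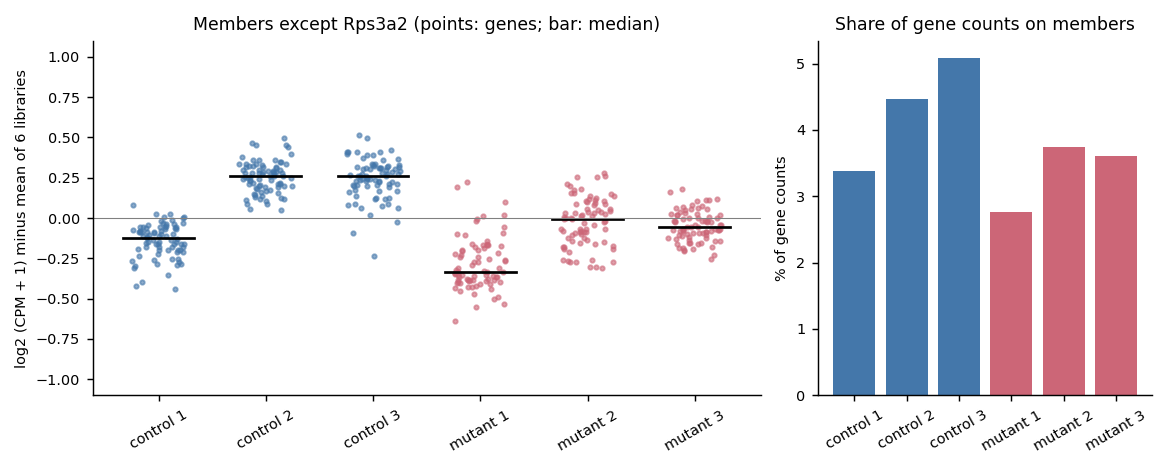
Left, log2 (CPM + 1) of 79 tested members (Rps3a2 left out) minus each gene's mean over 6 libraries, with 1 point per gene and a bar at the median; right, the percent of gene counts on all members. Control 1 sits with the mutants rather than with controls 2 and 3, and mutant 1 is the lowest library on both axes.

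The balance of the subunits was compared by their summed counts. The log2 ratio of 60S to 40S counts was 0.54, 0.51 and 0.54 in controls and 0.50, 0.53 and 0.54 in mutants. The mutant mean differed from the control mean by -0.0056, less than the SD of either group (0.018 in controls and 0.023 in mutants). With each member weighted equally, as the mean of log2 (CPM + 1), the difference turned to 0.040, with an SD of 0.12 in controls and 0.047 in mutants, and without Rps3a2, a choice made after seeing the data, it was -0.021. The median log2 fold change was -0.26 over 46 tested 60S members and -0.27 over 34 tested 40S members, with 44 and 32 of them below 0.

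Rps27, a 40S protein with a zinc finger, had the smallest p among protein-coding members. It stood at 198, 301 and 314 CPM in controls and at 177, 177 and 191 CPM in mutants. All 3 mutant libraries lay below all 3 controls, with control replicate 1 nearest to them. The log2 fold change was -0.58 with an SE of 0.21 (edgeR, unadjusted p = 0.0204, adjusted p = 0.676). Leaving out control replicate 2 or 3, or mutant replicate 1 or 2, ended the call, with an unadjusted p from edgeR of 0.0697, 0.0835, 0.0697 and 0.0535 in that order, as did the length trend with the replicate block, at 0.0699. Of the 50-base stretches of its mRNA, 98.6% also occur in other annotated genes, so its value is uncertain in how shared reads were counted.

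The paralog Rps27l had a log2 fold change on the other side of 0, about as large as its error. It stood at 28.6, 40.1 and 41.1 CPM in controls and at 44.4, 46.2 and 34.4 CPM in mutants. The groups overlapped, and the log2 fold change was 0.19 with an SE of 0.20. Whether the pair differed in response was not tested.

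Rpl36, Rps25 and Rps24 were among the next members by p, and all had an unadjusted p above 0.05 in the main test. Of 9 other settings with all libraries, Rpl36 was under 0.05 in 5 (total gene counts, upper quartile, DESeq2, limma-voom and the replicate block), Rps25 in 3 and Rps24 in 2. Rpl36, a 60S protein, stood at 287, 348 and 384 CPM in controls and 198, 289 and 254 CPM in mutants, with a log2 fold change of -0.46 (SE 0.21, unadjusted p = 0.0525 in edgeR). Mutant replicate 2 reached just above control replicate 1, so the groups overlapped. Rps25, a 40S protein used in internal initiation, stood at 344, 503 and 432 CPM in controls and 287, 319 and 342 CPM in mutants, which did not overlap (log2 fold change -0.43, SE 0.20, unadjusted p = 0.0603). Rps24, a 40S protein mutated in some patients with Diamond-Blackfan anaemia, stood at 491, 639 and 625 CPM in controls and 366, 503 and 440 CPM in mutants. Its groups overlapped through mutant replicate 2 (log2 fold change -0.42, SE 0.21). Among the members whose groups did not overlap were also Rpl13a and Rps21, at log2 fold changes of -0.43 and -0.34.

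**Figure D3:**
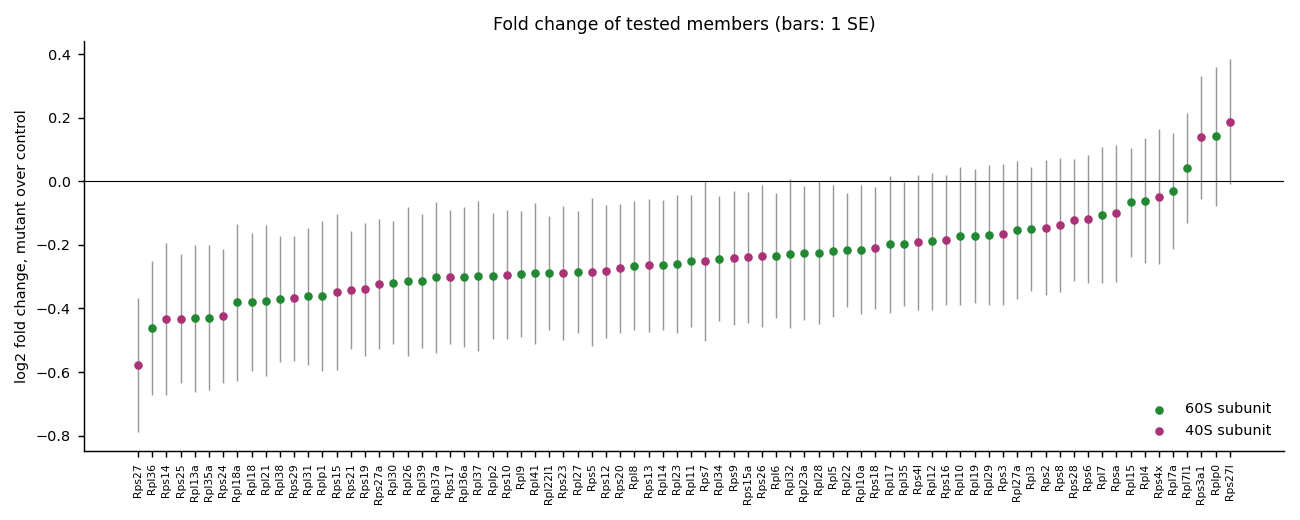
Log2 fold change of mutant over control for 78 tested members in order of size, coloured by subunit, with bars of 1 SE; Rps3a2 is left out. All but 4 points lie below 0, from Rps27 at -0.58 to Rps27l at 0.19, and most bars lie close to their neighbours.

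The members with a log2 fold change above 0 were Rps27l, Rps3a1, Rplp0 and Rpl7l1. Rplp0, the protein that anchors the ribosomal stalk and is often used as a reference gene, stood at 1248, 1532 and 1352 CPM in controls and 1546, 1374 and 1636 CPM in mutants (log2 fold change 0.14, SE 0.22). Its stalk partners Rplp1 and Rplp2 had log2 fold changes of -0.36 (SE 0.24) and -0.30 (SE 0.20), and Rpl12 at the stalk base -0.19 (SE 0.22). Rpl7l1 stood at 53.6, 68.9 and 60.7 CPM in controls and 72.0, 58.3 and 58.4 CPM in mutants, with a log2 fold change of 0.04 that turned to -0.083 when libraries were scaled by total gene counts only. Its body lies opposite Gm26904, a gene on the other strand with 34970 counts in all, but 0% of its exon bases lie in exons of that strand. The correlation with the members' median over the 6 libraries was -0.20 for Rps3a1, -0.12 for Rplp0, -0.04 for Rpl7l1 and 0.12 for Rps27l, while the median over members was 0.91. The correlations are descriptions over 6 libraries, and all members of a library share its depth and scaling. The genes with low correlations were named for their fold change in the same libraries, so these values are not a separate observation.

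Rps3a2 had the largest fold change and separated the libraries in another way. Its raw counts were 15, 213 and 415 in controls and 15, 18 and 16 in mutants, or 1.61, 23.6 and 32.4 CPM against 1.71, 1.47 and 1.70 CPM. Control replicate 1 was at the level of the mutants, so the groups overlapped, and the fold change rests on control replicates 2 and 3. The log2 fold change was -3.57 with an SE of 0.82 (edgeR, unadjusted p = 0.00139, adjusted p = 0.556), and limma-voom gave an unadjusted p of 0.113. Rps3a2 was also the 1 member that passed the adjusted test in edgeR when control replicate 1 was left out or when low counts were not filtered. How many of all genes passed in those fits is not given here, so the pass has no background beside it.

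Rps3a2 (chr14:88123017-88123808, minus strand, GRCm38) is a single-exon copy of the Rps3a1 mRNA, whose gene lies at chr3:86137940-86142702 on the minus strand. Over 792 aligned bases the copies were 99.5% identical, with 4 substitutions and no gaps, all in the coding part of Rps3a1. Of the 50-base stretches, 90.2% in Rps3a2 and 71.0% in Rps3a1 also occur in other annotated genes. The values of both rows are therefore uncertain in how shared reads were counted. The stretches around the substitutions are shown because these are the bases at which the copies differ. They do not separate Rps3a2 from every other annotated gene. Positions are counted from 1 at the 5′ end of the Rps3a1 mRNA, with the differing base in capitals and the Rps3a1 base first in each name. The substitutions are T349C, T667C, A778T and T801C.
Rps3a1 at T349C: gaagtgagccttgcTgatctacagaatga
Rps3a2 at T349C: gaagtgagccttgcCgatctacagaatga
Rps3a1 at T667C: cgagaggtgcagacTaatgacttgaagga
Rps3a2 at T667C: cgagaggtgcagacCaatgacttgaagga
Rps3a1 at A778T: tttgttagaaaagtAaaaatgctgaagaa
Rps3a2 at A778T: tttgttagaaaagtTaaaatgctgaagaa
Rps3a1 at T801C: gaagaaacccaagtTtgaattgggcaagc
Rps3a2 at T801C: gaagaaacccaagtCtgaattgggcaagc
Rps3a1, a 40S protein, stood at 558, 637 and 502 CPM in controls and 598, 655 and 615 CPM in mutants (log2 fold change 0.14, SE 0.19).

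Of the counts on both rows together, Rps3a2 held 0.287% (95% Clopper-Pearson interval 0.161 to 0.473) in control replicate 1, 3.58% (3.12 to 4.08) in control replicate 2 and 6.07% (5.51 to 6.66) in control replicate 3. In the mutants it held 0.285% (0.159 to 0.469), 0.224% (0.133 to 0.353) and 0.276% (0.158 to 0.447). These intervals cover counting error only. Control replicates 2 and 3 lay outside the intervals of every other library and of each other, and the other 4 libraries lay within each other's intervals. With both rows summed, a choice made after seeing the data, the log2 fold change was 0.09 (SE 0.19, unadjusted p = 0.64 in edgeR). In that fit 1 member, Rps27, was left lower at an unadjusted p under 0.05, beside 4.32% of all genes.

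**Figure D4:**
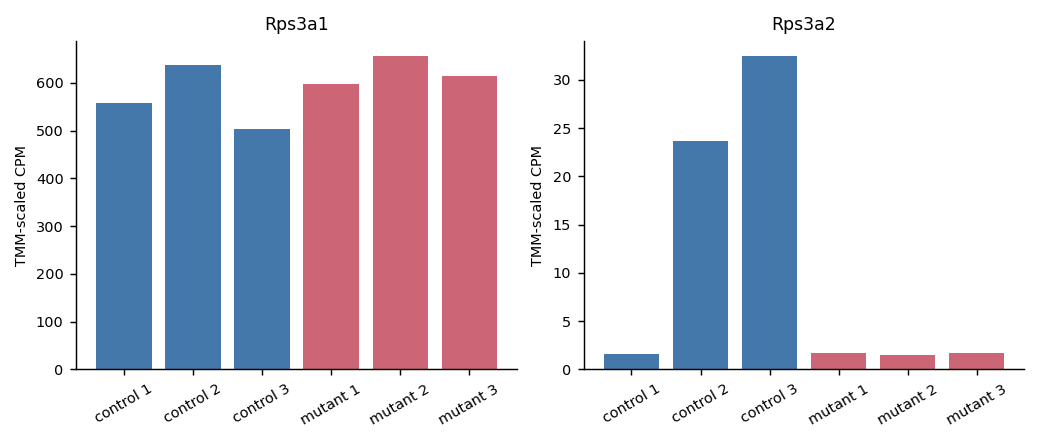
TMM-scaled CPM of Rps3a1 (left) and Rps3a2 (right) in each library, on separate axes that start at 0. Rps3a1 varies between 502 and 655, while Rps3a2 is above 20 in controls 2 and 3 and below 2 in the other 4 libraries.

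Rpl3l, the paralog that replaces Rpl3 in skeletal and heart muscle, was high in the same library as the muscle markers. Its counts were 128 in control replicate 1, 8 and 10 in the other controls and 4, 24 and 6 in the mutants, and it was left untested by the filter on low counts. It was tested and lower at an unadjusted p under 0.05 with no filter, where 3 members were lower (beside 5.74% of all genes). The same held without control replicate 2 or without control replicate 3, fits that keep the library with 128 counts. Without mutant replicate 1 or without mutant replicate 3, which keep that library too, Rpl3l was tested and not called. The library with the high count is the one in which muscle markers such as Acta1, skeletal actin, stood at 1260 CPM, where the other libraries held 11.1 to 65.4. Rpl3 itself stood at 568 to 745 CPM in all libraries, with a log2 fold change of -0.15 (SE 0.20).

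The remaining parents of paralogs and the members with known disease links were lower in the mutant average, without a call. Rpl22 had a log2 fold change of -0.22 (SE 0.18) and its paralog Rpl22l1 -0.29 (SE 0.18), while Rpl10 stood at -0.17 (SE 0.22), Rpl39 at -0.31 (SE 0.21) and Rpl7 at -0.11 (SE 0.21). Rpl5 and Rpl11, which with 5S RNA form the particle that can bind Mdm2, had log2 fold changes of -0.22 and -0.25 (SE 0.21 each). Rpl38, whose loss disturbs the pattern of vertebrae in mice, stood at 222, 283 and 313 CPM in controls and 182, 224 and 227 CPM in mutants (log2 fold change -0.37, SE 0.20, unadjusted p = 0.0911 in edgeR). Rpl29, whose loss gives small mice, had -0.17 (SE 0.22). Over 10 genes linked to Diamond-Blackfan anaemia the median was -0.30, with 10 of 10 below 0 and 0 called, where 95% of all members and 51.6% of all genes lay below 0 and 4.32% of all genes were called lower. Rpsa, a 40S protein also known as the laminin receptor precursor, had -0.10 (SE 0.22).

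Some members share exon sequence with a gene on the other strand. In Rpl35, 66.2% of exon bases lie in exons of the opposite strand, where Wdr38 is annotated, and the rows had 18982 and 19256 counts in all. In Rpl23a the share was 59.7%, opposite Tlcd1, with 23733 and 24913 counts. These pairs were picked after their counts were seen, and in such shared bases reads of the 2 genes cannot be told apart without a known strand setting.

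Short members tended to be lower than long ones. Across 78 tested members with a coding sequence, the Spearman correlation of log2 fold change with coding length was 0.55, and across 80 members with mRNA length it was 0.46. Genes outside the family showed a slope in the same direction: their median log2 fold change was -0.13 for 539 genes with mRNAs up to 500 bases, -0.08 for 1493 genes of 500 to 1000 bases and -0.03 for 3622 genes of 1000 to 2000 bases. In the same ranges the members' medians were -0.30 (19 genes), -0.25 (43 genes) and -0.18 (16 genes), lower than the other genes of their length. The 2 members of 2000 to 4000 bases did not continue the rise, at -0.25 beside 0.02 for 6024 other genes. With a trend on length fitted in each library, the members' median was -0.18, and 72 of 80 lay below 0, beside 51.0% of all genes. The part of length in these differences was tested only through that trend.

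**Figure D5:**
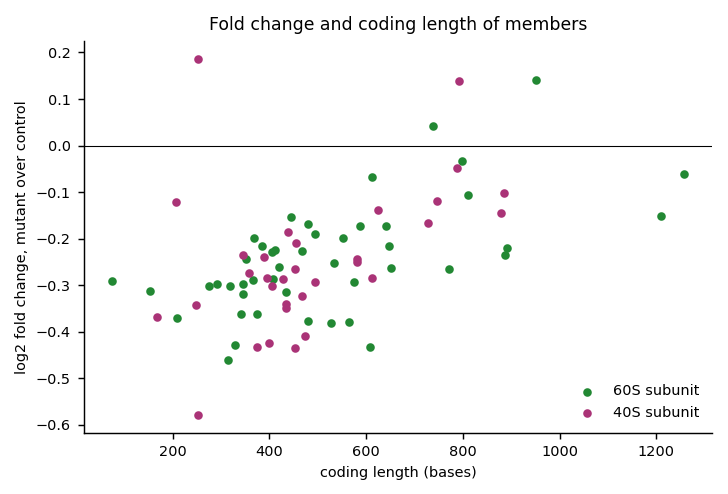
Log2 fold change of mutant over control against coding length in bases for members with a coding sequence, coloured by subunit. Short members such as Rps27 at -0.58 mostly lie lower than the longest, such as Rpl4 at -0.06, with Rps27l at 0.19 as an exception at the short end; Rps3a2 is not drawn.

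Other parts of the translation machinery served for comparison. The medians of these lists are close to 0 and several change sign with the scaling or with 1 library left out. Over 21 tested mRNAs of other TOP genes, such as elongation factors, the median log2 fold change was -0.06, with 13 of 21 below 0, beside 51.6% of all genes, and 0 called in either direction at an unadjusted p under 0.05. Of all genes 4.32% were called lower and 2.89% higher, so 0 calls in lists of this size is near the background. Eef1b2, a subunit of the factor that recharges eEF1A, had the smallest p among them, with -0.21 (SE 0.17), and Pabpc1, the poly(A)-binding protein, had 0.21 (SE 0.19). The mTOR regulators of TOP mRNAs had a median of -0.04 over 12 genes and 0 calls, led by Rheb, the activator of mTOR complex 1, at 0.28 (SE 0.16), and by the S6 kinase Rps6kb2 at -0.20 (SE 0.19). RNA polymerase I genes had a median of -0.02 over 13 genes and 0 calls, led by Polr1e at 0.23 (SE 0.21) and Taf1b at -0.17 (SE 0.21). In 0 genes of the other TOP, mTOR and RNA polymerase I lists did all mutants lie below all controls, beside 5.96% of all genes. Rheb was the 1 gene of these lists with all mutants above, beside 5.45%.

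Ribosome assembly factors had a median of -0.13 over 32 genes, of which 3 were lower, beside 4.32% of all genes, and 0 higher at an unadjusted p under 0.05, and 0 passed the adjusted test. In 5 of the 32 (15.6%) all mutants lay below all controls, and in 0 above, beside 5.96% and 5.45% of all genes. Heatr1, a factor of the small-subunit processome, stood at 12.8, 19.0 and 14.6 CPM in controls and 9.79, 11.5 and 9.35 CPM in mutants (log2 fold change -0.60, SE 0.24). Mdn1, the ATPase that remodels pre-60S particles, had -0.52 (SE 0.22). Each lost its call in 3 of 6 fits without 1 library, Heatr1 without control replicate 2 or mutant replicate 1 or 3 (p from edgeR up to 0.142) and Mdn1 without control replicate 2 or 3 or mutant replicate 3 (up to 0.13), and Mdn1 also in 4 of 9 other settings. The mitochondrial ribosome, built from separate proteins, had a median of -0.08 over 75 genes, with 1 higher and 2 lower at an unadjusted p under 0.05, beside 2.89% and 4.32% of all genes. In 12 of the 75 (16%) all mutants lay below all controls, again beside 5.96% of all genes, and in 3 all lay above, beside 5.45%. Mrpl3 stood at 0.54 (SE 0.17) and Mrps6 at -0.51 (SE 0.19), each with an adjusted p of 0.676 in edgeR. Mrpl3 lost its unadjusted call with total gene counts only, at an unadjusted p from edgeR of 0.0592. Mrps6 kept its own in 2 of 6 fits without 1 library, those without control replicate 3 or mutant replicate 2. Among other settings with all libraries, Mrps6 kept the call in 8 of 9. Translation initiation factors had a median of 0.05 over 52 genes, with 1 higher, Eif1a at 0.77 (SE 0.18), which helps the 40S subunit scan, and 0 lower. In 1 of the 52 (1.92%) all mutants lay below all controls, and in 2 all lay above, beside 5.96% and 5.45% of all genes. Eif5, which triggers GTP hydrolysis in the scanning complex, had 0.32 (SE 0.17). Of the ribosomal proteins with names outside the rule, Fau, which encodes a 40S protein fused to a ubiquitin-like domain, had -0.35 (SE 0.23), Rpl36al -0.29 (SE 0.18), and the 40S scaffold protein Rack1, listed as Gnb2l1, -0.06 (SE 0.22).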

How the data were processed

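IVD pools (3 mutant, 3 control) were profiled by poly(A) RNA-seq. The authors deposited raw counts per gene symbol and library; the methods name HISAT2 on GRCm38.88, while the submitters' processing notes list STAR 2.5.3a, HTSeq and DESeq2. Which aligner made the counts, and the strand setting, are not given in the sources used here. Multi-copy families such as this one are affected by how shared reads are treated. A deposited table of the authors' own comparison, with 6 per-sample columns of normalized values, was not used.

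Counts were compared with edgeR (4.0.16, quasi-likelihood test, TMM, filterByExpr at a count minimum of 10, limma 3.58.1, R 4.3.3), with Benjamini-Hochberg adjustment over all 16152 genes tested. The standard error is the size of the log2 fold change divided by the square root of F. Replicates are separate pools. Depth was 9061491 to 12017008 counts on genes. In simulated data for this comparison (15800 genes), 29.8% of genes changed 2-fold and 82.1% of those changed 4-fold were recovered. Levels per kb used the shortest principal mRNA with the longest coding sequence in GENCODE M21, which differs from the longest exon model first planned. Named genes were the 6 higher and 6 lower members with the smallest p (4 were higher), stalk, 5S particle, skeletal and paralog genes, the 4 highest and lowest levels per length, and 2 genes per further list. Members and lists were chosen with earlier results of these data known. Alternatives were RLE, total-count and upper-quartile scaling, no filter, DESeq2 1.42.0, limma-voom, a replicate block, a length trend and leaving out each library. A few genes are not reported here, and plots with gene labels omit them.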

Additional observations from a re-analysis of the deposited data

How the results depend on the processing

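The members' median log2 fold change stayed below 0 in every alternative, from -0.38 with total gene counts only to -0.18 with a length trend, and from -0.36 to -0.13 when 1 library was left out. Scaling by total gene counts also moved the median of all genes to -0.13. The count of members lower at an unadjusted p under 0.05 was 2 in the main analysis, beside 4.32% of all genes. It was 8 with total gene counts only (beside 6.13% of all genes). Upper quartile scaling gave 4 (4.86%) and DESeq2 without a prior 8 (4.62%). With the length trend and replicate block together it was 1 (3.77%), where Rps27 dropped out. With Rps3a1 and Rps3a2 summed, added after seeing the data, it was also 1 (4.32%). When 1 library was left out it lay between 1 (without mutant replicate 1, 2.52%) and 11 (without control replicate 1, 8.89%). The count at an adjusted p under 0.05 was 1 with no filter on low counts and between 0 and 1 when 1 library was left out, the 1 being without control replicate 1. The share of all genes that passed in those fits is not given here, so these counts are not read as a result about the members. With RLE size factors 3 members (3.75%) had groups that did not overlap, all lower in mutants, beside 5.68% of all genes. The 60S to 40S log2 ratio, mutant minus control, turned from -0.0056 to 0.040 when members were weighted equally. With 1 library left out this difference in summed counts ranged from -0.016 to 0.0076, so its sign turned there too. With total gene counts only, Rpl7l1 turned to -0.083. With 1 library left out, the sign also turned in the ranges of Rpl7l1 (-0.029 to 0.13), Rps4l (-0.33 to 0.00015), Rpsa (-0.18 to 0.038), Rpl29 (-0.35 to 0.018) and Rpl7 (-0.20 to 0.054). Medians of the comparison lists turned sign with 1 library left out for other TOP genes (-0.11 to 0.023), RNA polymerase I (-0.070 to 0.059) and mTOR control (-0.050 to 0.097). Over the other settings with all libraries, the sign turned for other TOP genes (up to 0.016) and mTOR control (up to 0.027). It also turned for initiation factors (-0.060) with total gene counts only, which lowered all 6. The cause was not tested. With the replicate block 3 members were lower at an unadjusted p under 0.05 (beside 3.75% of all genes), Rpl36 being the added one, and the median was -0.26. Same-numbered libraries deviated together at 0.10, -0.21 and 0.09 (correlation across genes), so the numbers were not taken as pairs. In the simulated data most 2-fold changes were missed, and smaller changes were not simulated.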
